A study of Homo sapiens with 4 samples.

Results

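The 5 anti-apoptotic relatives of BCL2 described here are BCL2A1, MCL1, BCL2, BCL2L1 and BCL2L2. They were chosen by name, as the genes of the BCL2 family that keep cells alive, out of 41084 Ensembl identifiers in the series. Each symbol matched 1 identifier, and all 5 passed the filter on low counts. RNA was sequenced from OCI-AML3, a human acute myeloid leukaemia line, as 2 libraries of genotype Plex CEBPB and as 2 of genotype Plex Control. CEBPB encodes the transcription factor C/EBPβ. The word Plex is not explained in the sources used here, nor is whether the libraries of a group came from separate cultures, so p-values measure the spread between these libraries only. The series title places the comparison in monocytic leukaemia cells that resist drugs against BCL2 and MDM2.

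The BCL2 family governs the mitochondrial route to cell death. The anti-apoptotic proteins hold the effectors BAX and BAK, and the BH3-only proteins that set these off, in a groove on their surface. When that hold fails, BAX and BAK permeabilise the outer mitochondrial membrane, cytochrome c escapes and caspases are activated. Venetoclax, a drug of myeloid leukaemia, occupies the groove of BCL2 and does not bind MCL1 or the BCL2A1 protein (also called BFL-1 or A1) well. MCL1 is a short-lived protein that myeloid cells depend on, BCL2A1 is a target gene of NF-κB in blood cells, and BCL2L1 and BCL2L2 encode BCL-XL and BCL-w.

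The deposited counts summed to between 18151225 and 21950575 per library. CEBPB itself stood at 536 and 339 TPM (an abundance per length of transcript, scaled to the same total in every library) in the CEBPB libraries, against 4.72 and 4.47 TPM in the Control libraries. Gene-level values do not tell an introduced copy of CEBPB from the cells' own gene. Of 9 myeloid markers, PTPRC, CD33, LYZ, SPI1, CD68 and CSF3R were at 19.2 TPM or more in all 4 libraries. ITGAM was low, at 4.54 and 5.23 TPM in the CEBPB libraries and 1.53 and 0.972 TPM in the Control libraries. ANPEP did not exceed 0.792 TPM and MPO did not exceed 1.79 TPM. Of the 8 markers tested, 2 rose (LYZ and ITGAM) and 4 fell (SPI1, CD68, CSF3R and MPO), and their part in the results below was not tested. Over all identifiers tested, 23.7% rose and 24.7% fell by the same test. Of 13 markers of other cell types, 6 were at 0 in every library, among them CD3E, HBB, HBA1, KRT19 and ALB. PECAM1, which monocytes also express, was at 33.9 and 36.1 TPM in the CEBPB libraries and 86.6 and 77.6 TPM in the Control libraries. The summed level of this list was therefore 36.2 and 37.1 TPM in the CEBPB libraries and 87.6 and 78.4 TPM in the Control libraries, and its part was likewise not tested. In bulk RNA, a change in the make-up of the cells and a change in RNA per cell cannot be told apart.

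RefSeq start-site windows were at hand for BCL2A1, BCL2 and BCL2L1. The 250 bases before the start are printed for BCL2A1 and BCL2, because these genes differed most between the groups and in opposite directions. The BCL2A1 window is chr15:79971197-79971446 and the BCL2 window is chr18:63319770-63320019, both on the minus strand of GRCh38.p14 and written 5′ to 3′ in the direction of the gene. GENCODE v29 places the outermost start of each gene at or beyond the far end of its window. Capitals mark matches to 5 motifs searched on both strands: TTNNGCAA for C/EBP, TGATGCAA for a C/EBP and ATF composite site, GAGGAAGT for PU.1, GGG with any 3 bases and then TTCC for NF-κB and TATAAA for a TATA box. The motifs were chosen after these sequences had been seen.
BCL2A1: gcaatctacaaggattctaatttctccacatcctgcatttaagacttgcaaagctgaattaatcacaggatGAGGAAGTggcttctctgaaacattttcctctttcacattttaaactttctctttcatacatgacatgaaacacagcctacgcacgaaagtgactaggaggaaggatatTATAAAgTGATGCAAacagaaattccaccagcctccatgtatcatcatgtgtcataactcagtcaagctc
BCL2: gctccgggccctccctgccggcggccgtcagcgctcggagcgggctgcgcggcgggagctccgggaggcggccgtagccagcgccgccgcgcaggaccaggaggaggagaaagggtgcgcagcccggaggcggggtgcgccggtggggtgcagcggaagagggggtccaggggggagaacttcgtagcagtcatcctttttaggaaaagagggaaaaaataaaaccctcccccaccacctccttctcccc
The BCL2A1 window held GAGGAAGT at 179 to 172 bases before the start, TATAAA at 70 to 65 bases and TGATGCAA at 63 to 56 bases. No match lay on another, and the TATAAA and TGATGCAA matches were 1 base apart. Over 34786 windows of the same length, TGATGCAA was present in 0.776%, GAGGAAGT in 2.18% and TATAAA in 10.8%. TTNNGCAA was present in 9.05% and the NF-κB motif in 5.67%, and neither occurred in the BCL2A1 window. None of the 5 motifs occurred in the BCL2 window. The windows also differed in base composition, with 38.8% G and C and 2 CpG sites for BCL2A1, 70.0% and 24 for BCL2, and a median G and C content of 58.0% over all windows. The first BCL2L1 window held TATAAA at 208 to 203 and at 125 to 120 bases before the start, and a second start listed for BCL2L1 held none of the motifs. These matches describe the letters of the windows only.

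BCL2A1 and MCL1 rose in the CEBPB libraries, BCL2 fell, and BCL2L1 and BCL2L2 did not pass the test. Thus 2 of 5 members were called higher and 1 lower, by edgeR's quasi-likelihood test with Benjamini-Hochberg adjustment over all identifiers and a threshold of 0.05. Across the 13698 identifiers tested, 23.7% were called higher and 24.7% lower, 48.5% in all, so calls in both directions were common and the members' share is close to that of the whole table. Against a change of 1.5-fold instead of 0, the same test called BCL2A1, MCL1 and BCL2, which is 3 of 5, against 17.3% of all identifiers tested. The members were chosen with earlier results of these data known, so this contrast is no test of the group. On the TPM scale both CEBPB libraries lay above both Control libraries for 4 members and below both for BCL2, as they did for 48.7% and 28.6% of identifiers tested.

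BCL2A1 (ENSG00000140379.9, chromosome 15 of GRCh38, 79960889 to 79971446, minus strand) had 1022 and 863 TPM in the CEBPB libraries, against 31.3 and 35.0 TPM in the Control libraries. The groups lay far apart, and the smaller CEBPB value was still many times the larger Control value. Means were 943 ± 112 TPM in the CEBPB libraries and 33.1 ± 2.59 TPM in the Control libraries (SD, n = 2 each). The ratio of these TPM means was 28.4. In edgeR, which rescales the libraries against each other, the log2 fold change was 4.65 with an SE of 0.10 (edgeR adjusted p = 3.9e-05), or 25.1-fold. Fold changes from edgeR therefore differ from ratios of TPM means. By size of rise in edgeR, BCL2A1 stood in place 111 of 13698. By level among all identifiers, BCL2A1 stood in places 137 and 157 in the CEBPB libraries and in places 4099 and 3775 in the Control libraries.

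The reads behind BCL2A1 were fewer than its deposited counts, since those counts are TPM times a constant and carry no length. Its effective length, the length of transcript that can yield a read, was only 422 to 437 bases in the 4 libraries. Reads recovered as TPM times effective length came to 7278 and 5388 in the CEBPB libraries and 226 and 274 in the Control libraries, where the deposited counts were 22430 and 15670 and 622 and 755. On recovered reads the log2 fold change was 4.64 with an SE of 0.09 (edgeR adjusted p = 7.8e-07).

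MCL1 (ENSG00000143384.14, chromosome 1, 150574551 to 150579738, minus strand) had 215 and 181 TPM in the CEBPB libraries, against 80.5 and 82.9 TPM in the Control libraries. Both CEBPB libraries were above both Control libraries, which lay close together. Its means were 198 ± 24.3 TPM in the CEBPB libraries and 81.7 ± 1.73 TPM in the Control libraries (SD, n = 2 each). The ratio of these TPM means was 2.42. After the rescaling in edgeR, the log2 fold change was 1.10 with an SE of 0.08 (edgeR adjusted p = 4.7e-04), or 2.14-fold. MCL1 had the most recovered reads of the 5 genes in every library, 12154 and 9007 in the CEBPB libraries and 4780 and 5291 in the Control libraries. Its effective length stayed between 3456 and 3488 bases. That count of reads goes with a longer transcript than that of BCL2A1.

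**Figure D1:**
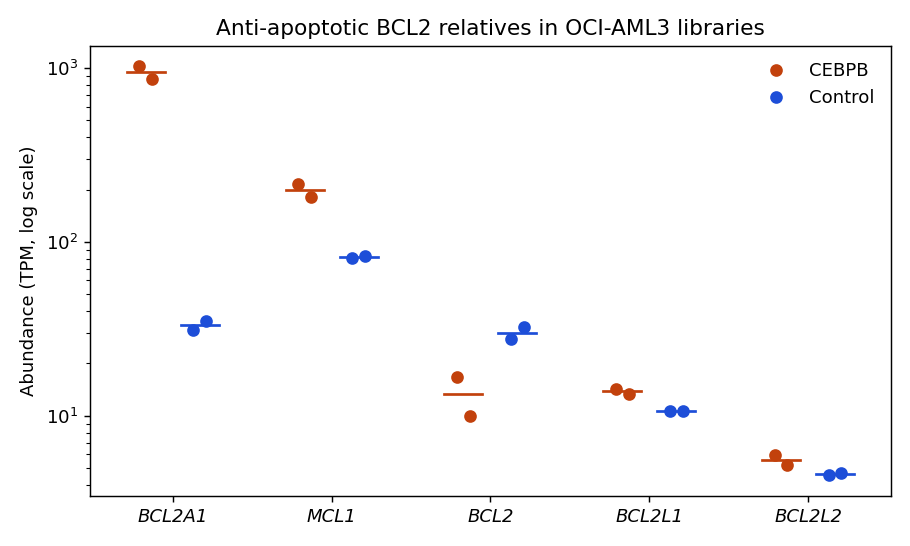
Abundance of each anti-apoptotic gene in TPM (log scale) in the 2 CEBPB libraries (left of each pair) and the 2 Control libraries (right). Points are libraries and lines are group means. BCL2A1 stands at 943 TPM in the CEBPB libraries against 33.1 TPM in the Control libraries, MCL1 at 198 against 81.7 TPM, and BCL2 at 13.3 against 30.1 TPM.

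BCL2 (ENSG00000171791.14, chromosome 18, 63123346 to 63320128, minus strand) had 16.7 and 9.95 TPM in the CEBPB libraries, against 27.6 and 32.6 TPM in the Control libraries. The groups did not overlap, but relative to their mean the 2 CEBPB libraries differed more than for any other member (coefficient of variation 35.9%). Means were 13.3 ± 4.79 TPM in the CEBPB libraries and 30.1 ± 3.54 TPM in the Control libraries (SD, n = 2 each). The ratio of these TPM means, CEBPB over Control, was 0.443. After the rescaling in edgeR, the log2 fold change was -1.35 with an SE of 0.22 (edgeR adjusted p = 0.0054), or 2.55-fold lower. It ranged from -1.73 without CEBPB replicate 1 (adjusted p = 0.00317, edgeR) to -1.06 without CEBPB replicate 2 (adjusted p = 0.00689, edgeR).

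The lengths assigned to BCL2 also differed between the CEBPB libraries. The effective length of BCL2 was 4850 and 6250 bases in the CEBPB libraries, and 5545 and 5671 bases in the Control libraries. A ratio as large as the 1.29 between the CEBPB libraries occurred in 7.74% of identifiers tested, whereas the ratio was 1.04 or less for the other 4 members. GENCODE v29 lists BCL2 transcripts of 7461, 5011, 3209 and 572 bases, and an effective length averages over those to which reads are assigned. As recovered reads scaled to the library total (CPM), BCL2 had 60.4 and 48.9 in the CEBPB libraries, against 132 and 158 in the Control libraries. The coefficient of variation between the CEBPB libraries was 14.9% on that scale and 35.9% in TPM. On recovered reads the log2 fold change of BCL2 was -1.47 with an SE of 0.12 (edgeR adjusted p = 8.1e-05), a smaller error than on the deposited counts. That fit takes no account of the lengths. With effective length as an offset, the log2 fold change was -1.37 (adjusted p = 0.00164, edgeR). The gene-level files do not show which transcripts took the reads.

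**Figure D2:**
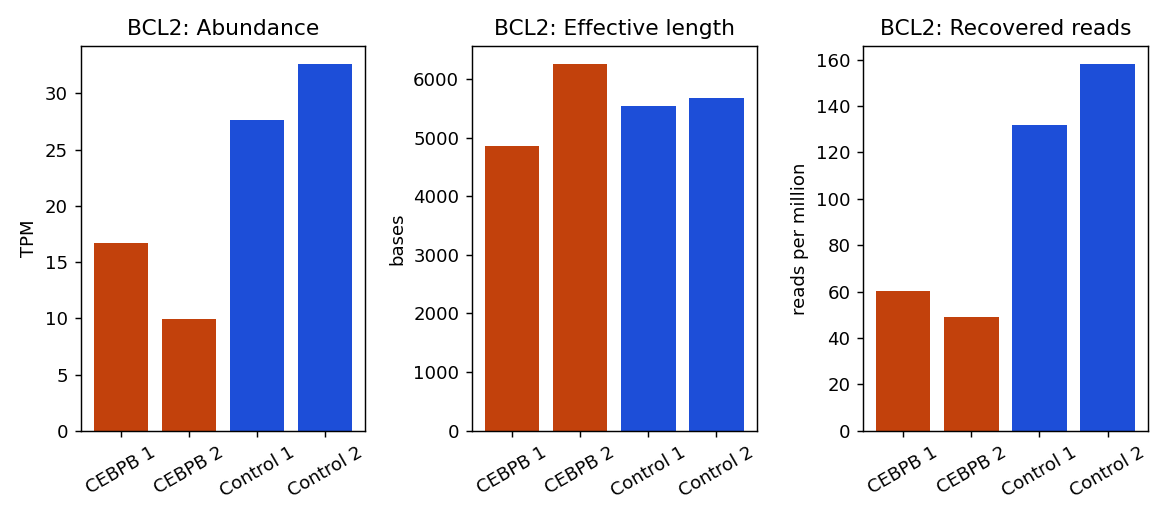
BCL2 in the 4 libraries, as TPM (left), effective length in bases (middle) and recovered reads in CPM (right), with 1 bar per library. The CEBPB libraries differ in TPM (16.7 and 9.95) and in length (4850 and 6250 bases), and less in CPM (60.4 and 48.9, against 132 and 158 in the Control libraries).

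BCL2L1 (ENSG00000171552.14, chromosome 20, 31664452 to 31723989, minus strand), the gene of BCL-XL, had 14.3 and 13.3 TPM in the CEBPB libraries, against 10.7 and 10.7 TPM in the Control libraries. The groups did not overlap in TPM, yet the log2 fold change was 0.18 with an SE of 0.10 (edgeR adjusted p = 0.193), which missed the threshold. The answer depended on the scaling between libraries. With library totals in place of the trimmed mean of M values (TMM), which moved the median of all identifiers up by 0.181 on the log2 scale, BCL2L1 was at 0.36 (adjusted p = 0.0439, edgeR). On log2 TPM it also passed (adjusted p = 0.0487 and 0.0449 with 1 or 0.1 added, limma). Less that median shift, its value was close to that under TMM.

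BCL2L2 (ENSG00000129473.11, chromosome 14, 23298790 to 23311759, plus strand), the gene of BCL-w, was the lowest member, with 5.94 and 5.20 TPM in the CEBPB libraries and 4.55 and 4.66 TPM in the Control libraries. Its log2 fold change was 0.09 with an SE of 0.16 (edgeR adjusted p = 0.677), and -0.013 on recovered reads (adjusted p = 0.931, edgeR), so its sign was not fixed. The read-through gene BCL2L2-PABPN1 overlaps BCL2L2 on the same strand and was listed at a higher level, with 14.9 and 12.6 TPM in the CEBPB libraries and 16.1 and 17.8 TPM in the Control libraries. Its log2 fold change was -0.48 (adjusted p = 0.0175, edgeR). It did not pass under 7 of 17 other ways of fitting the data. These include the test against a 1.5-fold change, which asks a stricter question, and fits with 1 library left out. Also among them were library totals (-0.30, adjusted p = 0.111, edgeR) and DESeq2 (adjusted p = 0.0605). On log2 TPM it did not pass either (adjusted p = 0.113 and 0.110 with 1 or 0.1 added, limma). Leaving out 1 library gave log2 fold changes of -0.56 to -0.39 for BCL2L2-PABPN1. Reads from exons that these genes share can be assigned to either, so the values of BCL2L2 are uncertain.

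The order of the genes by TPM differed between the groups. In the CEBPB libraries BCL2A1 was highest, MCL1 next and BCL2L2 lowest, while BCL2 and BCL2L1 overlapped between them. In the Control libraries MCL1 was highest, BCL2A1 and BCL2 overlapped, and BCL2L1 and BCL2L2 followed.

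As a share of the summed TPM of the 5 genes, BCL2A1 made up 80.2% and 80.5% in the CEBPB libraries, against 20.2% and 21.1% in the Control libraries. MCL1 made up 16.9% in each CEBPB library, against 52.0% and 50.0% in the Control libraries. MCL1 thus rose in level and shrank as a share. BCL2 made up 1.31% and 0.928% in the CEBPB libraries, against 17.9% and 19.7% in the Control libraries. BCL2L1 made up 1.12% and 1.24% in the CEBPB libraries and 6.92% and 6.45% in the Control libraries. BCL2L2 made up 0.467% and 0.485% in the CEBPB libraries and 2.94% and 2.81% in the Control libraries. Replicates of a group were within a few percentage points of each other and the groups did not overlap for any member. An exact permutation test over 2 against 2 libraries gave a two-sided p of 0.333 for each share, which is the smallest value this design allows.

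The sum itself was 1274 and 1073 TPM in the CEBPB libraries, against 155 and 166 TPM in the Control libraries. The ratio of the means was 7.32 (exact permutation p = 0.333, two-sided, the smallest possible). On recovered reads, which were not scaled to equal library totals here, the sum differed by 1.05 on the log2 scale, against 2.87 in TPM. BCL2A1 gave 89.8% of the difference in TPM between the group means and MCL1 gave 11.5%, while BCL2 took away 1.65%. Shares in TPM count transcripts and not reads. As shares of recovered reads, BCL2A1 made up 33.3% and 33.4% in the CEBPB libraries and 2.67% and 2.77% in the Control libraries. MCL1 led in all 4 libraries by reads, with 55.7% and 55.9% in the CEBPB libraries and 56.5% and 53.6% in the Control libraries. By reads BCL2 made up 6.07% and 5.51% in the CEBPB libraries and 30.9% and 34.4% in the Control libraries. On either scale the share of BCL2A1 was higher and that of BCL2 lower in the CEBPB libraries, whereas the shift in MCL1 was seen in TPM only.

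**Figure D3:**
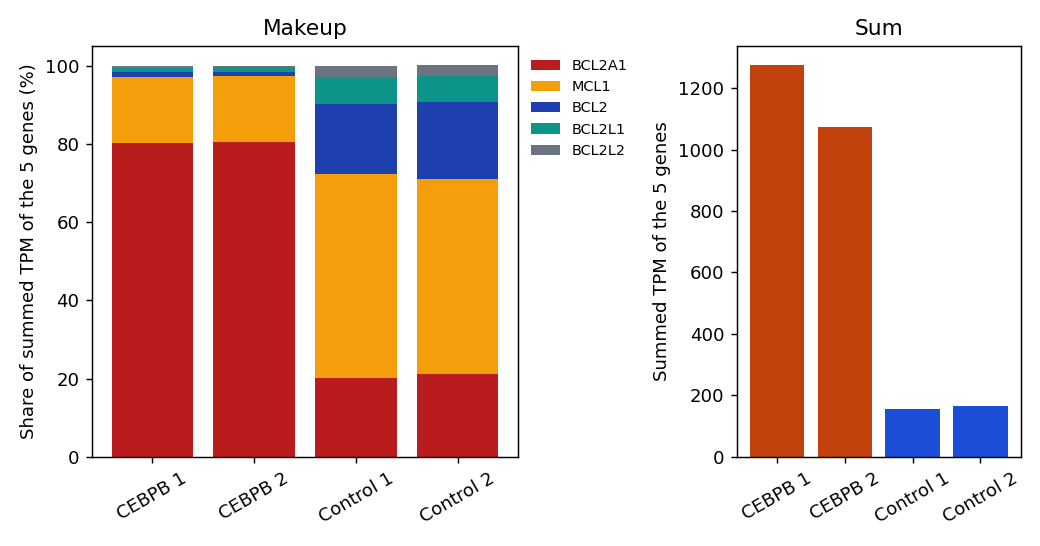
Left, share of the summed TPM of the 5 anti-apoptotic genes held by each gene in each library. Right, the summed TPM per library. BCL2A1 fills 80.2% and 80.5% of the bars of the CEBPB libraries and 20.2% and 21.1% of those of the Control libraries, and the sum is 1274 and 1073 TPM against 155 and 166 TPM.

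Ratios within a library do not depend on scaling between libraries. BCL2A1 stood at 61.1 and 86.7 times the TPM of BCL2 in the CEBPB libraries, against 1.13 and 1.07 times in the Control libraries. The log2 ratio differed by 6.04 between the group means. MCL1 stood at 12.9 and 18.2 times BCL2 in the CEBPB libraries and at 2.92 and 2.54 times in the Control libraries, a difference of 2.49 on the log2 scale. BCL2A1 over MCL1 was 4.75 and 4.77 in the CEBPB libraries, which hardly differed, and 0.389 and 0.422 in the Control libraries. For each of these 3 ratios the groups did not overlap and the exact permutation p was 0.333, the smallest possible with 2 libraries each.

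The transcripts of the effectors and BH3-only proteins that the anti-apoptotic members restrain were set beside them. Of 11 effectors and BH3-only genes, 8 passed the filter on low counts, and of these 1 rose, 4 fell and 3 did not pass. Their median log2 fold change was -0.31, against 0.001 over all identifiers tested. Over all identifiers tested, 23.7% were called higher and 24.7% lower, and these shares apply beside the counts of the later lists as well. BMF had 3.12 and 3.60 TPM in the CEBPB libraries and 12.5 and 9.97 TPM in the Control libraries (log2 fold change -1.93, adjusted p = 0.00119, edgeR). BBC3, which encodes PUMA, fell by 1.48 on the log2 scale and BID by 0.48, while BCL2L11, which encodes BIM, rose by 0.35 (adjusted p = 0.0172, edgeR). Without CEBPB replicate 1, Control replicate 1 or Control replicate 2, the adjusted p of BCL2L11 was 0.0501, 0.0797 and 0.0754 (edgeR), so no gene of this list was then called higher. The effectors BAX, with 150.5 and 157 TPM in the CEBPB libraries and 147 and 153 TPM in the Control libraries, and BAK1 did not pass.

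The 11 partner genes summed to 413 and 407 TPM in the CEBPB libraries, against 459 and 449.5 TPM in the Control libraries. The sum of the 5 anti-apoptotic genes was 3.08 and 2.64 times the partner sum in the CEBPB libraries and 0.337 and 0.369 times in the Control libraries. The log2 ratio differed by 3.01 between the group means in TPM and by 1.33 on recovered reads. These are RNA levels, and the files hold no protein measurement.

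**Figure D4:**
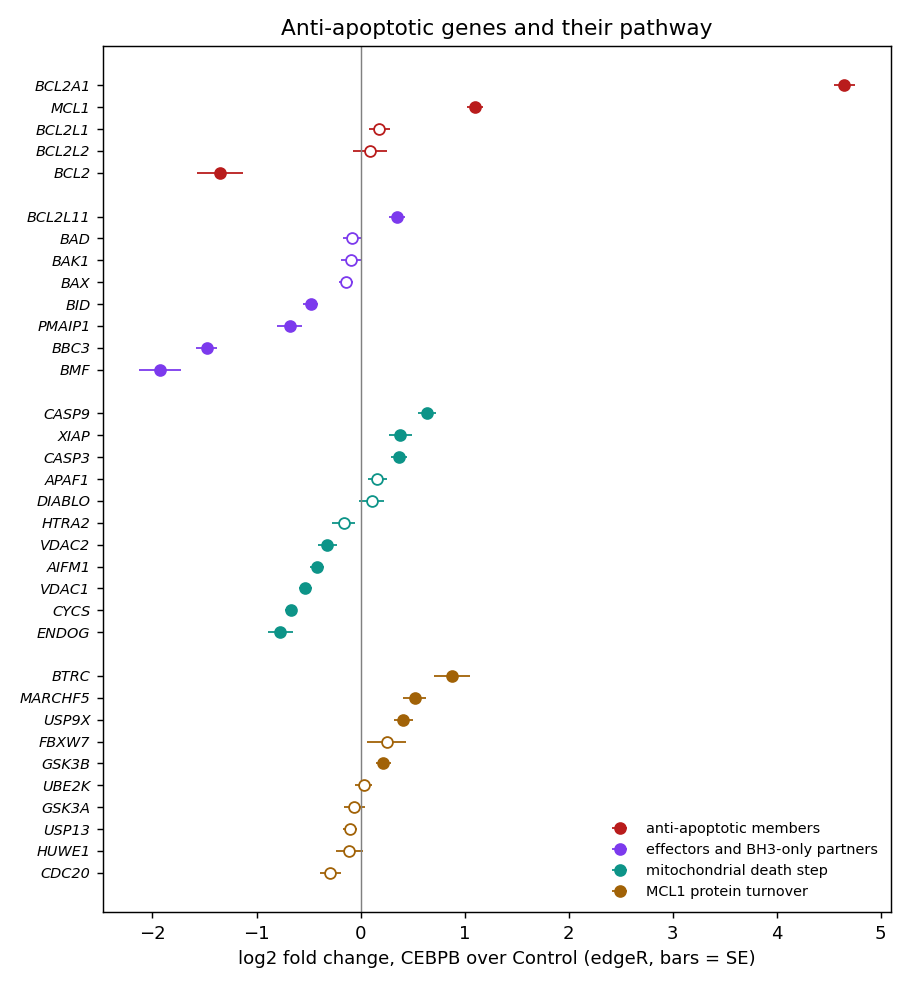
Log2 fold change, CEBPB over Control, of the anti-apoptotic genes and 3 lists of their pathway, with bars for the SE (edgeR). Filled points passed the adjusted p threshold of 0.05, open points did not, and 1 gene of the death step is not plotted. BCL2A1 lies at 4.65, MCL1 at 1.10 and BCL2 at -1.35, while BMF at -1.93 is the lowest point plotted.

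All 12 listed genes of the mitochondrial death step were tested, and 4 rose, 5 fell and 3 did not pass (median log2 fold change -0.02). The list mixes opposed roles. XIAP, which encodes an inhibitor of caspases, was among those that rose (log2 fold change 0.38, adjusted p = 0.0318, edgeR). Cytochrome c, encoded by CYCS, had 209 and 194 TPM in the CEBPB libraries and 285 and 283 TPM in the Control libraries (log2 fold change -0.67, adjusted p = 7.6e-04, edgeR). VDAC1, a channel of the outer membrane, fell by 0.53 on the log2 scale. The initiator caspase gene CASP9 had 21.6 and 21.2 TPM in the CEBPB libraries and 11.9 and 12.2 TPM in the Control libraries, and rose by 0.64 on the log2 scale (adjusted p = 0.00318, edgeR). Without Control replicate 2, 2 genes of this list rose and 4 fell. None of the 12 passed against a 1.5-fold change.

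MCL1 protein is removed by ubiquitin ligases, and genes of that turnover formed a list of 10, all tested. Of these 4 rose, 0 fell and 6 did not pass, with a median log2 fold change of 0.13. In that list CDC20 was called lower by DESeq2 (adjusted p = 0.0376), and 1 gene, CDC20 itself, had a log2 fold change under 0 at an unadjusted p under 0.05 in edgeR. BTRC, which encodes a substrate receptor of such a ligase, had 15.1 and 11.5 TPM in the CEBPB libraries and 5.84 and 6.89 TPM in the Control libraries (log2 fold change 0.88, adjusted p = 0.00935, edgeR). MARCHF5, a mitochondrial ubiquitin ligase, rose by 0.52, and USP9X, which removes ubiquitin from MCL1, by 0.41. GSK3B, a kinase that marks MCL1 for removal, rose by 0.22 (adjusted p = 0.0396, edgeR). It did not pass under 7 of 17 other ways of fitting the data. These include the test against a 1.5-fold change, which asks a stricter question, and fits with 1 library left out. Also among them were DESeq2 (adjusted p = 0.150) and no filter on low counts (adjusted p = 0.0634, edgeR). Leaving out 1 library gave log2 fold changes of 0.20 to 0.26 for GSK3B. Without CEBPB replicate 1, BTRC was the only gene of the list that rose, and HUWE1 and CDC20 fell. Without Control replicate 1, 2 rose.

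Among 7 genes of transcription factors known to act on BCL2A1 or of the manipulated factor itself, 3 rose, 1 fell and 3 did not pass. Their median log2 fold change was 0.16. CEBPB, which names the CEBPB group, is counted among those that rose and in the median, so its rise is no finding about this list. Apart from CEBPB (6.38), NFKB2, a subunit gene of NF-κB, had 58.9 and 64.7 TPM in the CEBPB libraries and 22.9 and 24.5 TPM in the Control libraries (log2 fold change 1.21, adjusted p = 6.5e-04, edgeR). RELA was at 0.27 (adjusted p = 0.0492, edgeR) and did not pass under 7 of 17 other ways of fitting the data. These include the test against a 1.5-fold change, which asks a stricter question, and fits with 1 library left out. Also among them were DESeq2 (adjusted p = 0.120), limma-voom (adjusted p = 0.0591) and no filter on low counts (adjusted p = 0.0626, edgeR). Leaving out 1 library gave log2 fold changes of 0.19 to 0.35 for RELA. SPI1, which encodes PU.1, fell to 103 and 120.2 TPM in the CEBPB libraries, against 218 and 223 TPM in the Control libraries (log2 fold change -1.16, adjusted p = 9.5e-04, edgeR).

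The genes whose profile over the 4 libraries lay nearest to each moving member were found among 10588 identifiers, as the Euclidean distance between log2(TPM + 1) values after removal of each gene's mean. With 2 groups of 2 libraries this mostly ranks genes by the size of the difference. Nearest to BCL2A1 were TSPAN2 (distance 0.260), ITGA1 (0.265) and RGS1 (0.303). TSPAN2 had 54.1 and 57.2 TPM in the CEBPB libraries and 0.968 and 0.965 TPM in the Control libraries. ITGA1 had 30.6 and 24.6 TPM in the CEBPB libraries and 0.168 and 0.0187 TPM in the Control libraries. At Control values this low the added 1 shrinks the difference, so nearness does not mean an equal ratio of TPM. RGS1 had 231 and 198 TPM in the CEBPB libraries and 8.51 and 7.64 TPM in the Control libraries. Nearest to MCL1 were STS (0.0253), PRKCI (0.0261) and HABP4 (0.0382), of which PRKCI had 69.5 and 57.5 TPM in the CEBPB libraries and 24.9 and 25.9 TPM in the Control libraries. Nearest to BCL2 were ADCY3 (0.102), KLRF1 (0.175) and ZNF321P (0.204). ADCY3 had 40.7 and 24.8 TPM in the CEBPB libraries and 71.7 and 77.2 TPM in the Control libraries, so it too differed between the CEBPB libraries.

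**Figure D5:**
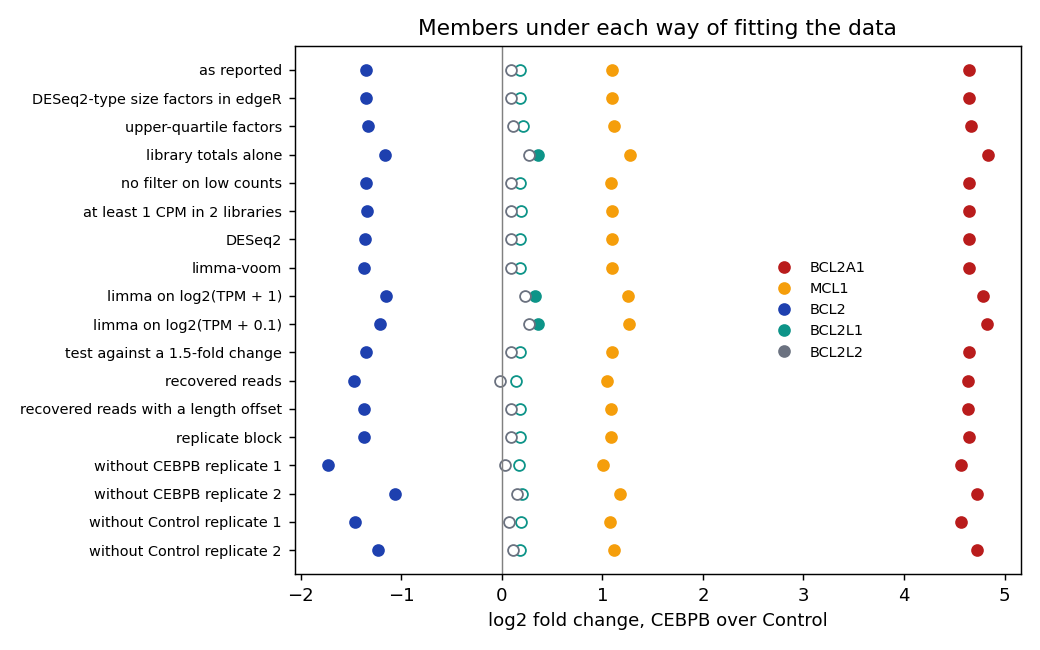
Log2 fold change, CEBPB over Control, of the 5 members as reported and under 17 other ways of fitting the data. Filled points passed the adjusted p threshold of 0.05. BCL2A1 (4.57 to 4.83), MCL1 (1.01 to 1.28) and BCL2 (-1.73 to -1.06) passed throughout, BCL2L1 passed in 3 and BCL2L2 in none.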

How the data were processed

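RNA of 4 OCI-AML3 libraries was measured as gene-level values. Per the submitters' processing notes, reads were processed with Trimmomatic 0.39 and kallisto 0.46.2 on GRCh38, and per the labels' protocols the libraries were poly(A)-selected and stranded. Neither the annotation version, nor how strand was set, nor how transcripts were summed to genes is given in the sources used here. The authors deposited TPM, estimated counts (expected counts) and effective lengths in bases. Each deposited count is the TPM times 1 constant per library.

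Counts were rounded, filtered with filterByExpr (13698 identifiers left), scaled by TMM and tested in R 4.3.3 with edgeR 4.0.16 (quasi-likelihood F test, Benjamini-Hochberg adjustment over all identifiers, threshold 0.05). The SE is the log2 fold change divided by the root of F. Fold changes in edgeR include its small prior count. Recovered reads are the product of effective length and TPM, scaled to each library's deposited total, and 58.7% to 60.8% of values between 0.2 and 500 lay within 0.01 of a whole number. Replicates differed by more than counting error (chi-square per degree of freedom 8.86 in CEBPB, 4.66 in Control). Alternatives used DESeq2 1.42.0 and limma 3.58.1. Of 41084 identifiers 35690 matched a symbol. Gene coordinates come from GENCODE v29 on GRCh38 and start-site windows from RefSeq (GRCh38.p14). The members and lists were chosen with earlier results of these data known. Named from each list were at most 4 genes, those of lowest adjusted p, including 1 for either direction if both had calls. For other BCL2-related genes all that were tested are named. CDC20, HUWE1, BAX, BAK1, XIAP, MPO and ITGAM were named after their values were seen, as were the markers at 0. Of the genes counted in these lists, 2 are not reported here by name.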

Additional observations from a re-analysis of the deposited data

How the results depend on the processing

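BCL2A1, MCL1 and BCL2 kept their direction and passed under all 17 alternatives to the reported fit. Leaving out 1 library gave log2 fold changes of 4.57 to 4.73 for BCL2A1, 1.01 to 1.18 for MCL1, -1.73 to -1.06 for BCL2, 0.17 to 0.20 for BCL2L1 and 0.034 to 0.15 for BCL2L2. BCL2L1 passed with library totals (0.36) and on log2 TPM (0.33 and 0.36), where the median of all identifiers moved up by 0.150 to 0.181, and BCL2L2 changed sign on recovered reads (-0.013). Tested against a 1.5-fold change, 1186 identifiers were called higher and 1188 lower, against 3251 and 3390. In that test 0 effector or BH3-only genes were higher and 2 lower, 0 of the death step were higher and 0 lower, and 0 of MCL1 turnover were higher.

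With 1 library left out, 0 to 1 effector or BH3-only genes were higher, 2 to 4 of the death step were higher, and 1 to 4 of MCL1 turnover were higher and 0 to 2 lower. CDC20 was the 1 gene of MCL1 turnover called lower with DESeq2, with recovered reads, with these and a length offset, and with the replicate block. The labels number the libraries of both groups 1 and 2, but same-numbered libraries did not deviate together (r = -0.0131), so the numbers were not taken as pairs. With a replicate block the log2 fold changes were 4.65 for BCL2A1, 1.09 for MCL1, -1.37 for BCL2, 0.18 for BCL2L1 and 0.089 for BCL2L2, with no call of a member changed, and GSK3B did not pass (adjusted p = 0.0571, edgeR).

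Differences in share, CEBPB minus Control, turned most on the quantity. On recovered reads they were 30.7 percentage points for BCL2A1, 0.781 for MCL1, -26.9 for BCL2, -2.88 for BCL2L1 and -1.69 for BCL2L2, against 59.7, -34.1, -17.6, -5.51 and -2.40 in TPM. The sum of recovered reads, not scaled to equal library totals, rose by 1.05 on the log2 scale, against 2.87 in TPM. Shares of reads weight each gene by its effective length, which is shortest for BCL2A1 and longest for BCL2. With BCL2L10, which was at 0, and BCL2L2-PABPN1 added to the sum, the differences were 60.7, -29.5, -15.9, -4.89 and -2.13 points. Without 1 library the TPM differences were 59.3 to 60.1, -35.2 to -33.1, -18.5 to -16.7, -5.74 to -5.28 and -2.47 to -2.33 points. BCL2L12, not called (0.013), changed sign on recovered reads, where it was called lower (-0.21, adjusted p = 0.0413, edgeR), without CEBPB replicate 2 (-0.084) and without Control replicate 2 (-0.020), within a range of -0.084 to 0.12 with 1 library left out, and BCL2L13 (0.038) on recovered reads (-0.014). The cause was not tested. With 2 libraries per group, no exact test over libraries can pass 0.05.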

Other observations

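Of 8 other BCL2-related genes, 5 passed the filter on low counts, and 2 of these rose, 1 fell and 2 did not pass. The genes that rose, BNIP3L and BNIP3, encode mitophagy receptors, proteins of the outer mitochondrial membrane that mark mitochondria for removal. BNIP3L had 108 and 128 TPM in the CEBPB libraries, against 59.1 and 62.7 TPM in the Control libraries (log2 fold change 0.77, SE 0.12, adjusted p = 0.00479, edgeR). BNIP3 had 38.9 and 42.4 TPM in the CEBPB libraries, against 24.0 and 24.4 TPM in the Control libraries (log2 fold change 0.57, SE 0.09, adjusted p = 0.00587, edgeR). Neither passed against a 1.5-fold change (adjusted p = 0.128 and 0.786, edgeR). BCL2L13, which encodes a further mitophagy receptor of that membrane, did not pass, at 0.038 on the log2 scale (adjusted p = 0.672, edgeR). BCL2L12 did not pass either, at 0.013, but was called lower on recovered reads (-0.21, adjusted p = 0.0413, edgeR), and the gene that fell was the read-through BCL2L2-PABPN1. BCL2L10, a further anti-apoptotic relative, was at 0 TPM in all 4 libraries.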
